A study of Mus musculus with 2 samples.

Results

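Notch1 binding was examined at the genes that encode the splicing machinery and the heterogeneous nuclear ribonucleoproteins (hnRNPs) in gamma delta T cells of the neonatal mouse thymus. Earlier results of these data were known when the genes were chosen. Nuclear protein-coding genes of the GENCODE M21 annotation were taken if their symbols start with Srsf, Hnrnp, Snrp, Sf3a, Sf3b, Prpf or U2af. This gave 68 genes of 21938. They comprised 20 Hnrnp, 13 Prpf, 12 Snrp, 11 Srsf, 9 Sf3a or Sf3b and 3 U2af genes. Genes with Snrnp symbols fall outside the rule and are counted below with other splicing genes. Primary gamma delta T cells were taken from thymus at postnatal day 0 to 3 from C57BL/6 mice of wild type genotype, and 1 library was precipitated with the rabbit monoclonal Notch1 antibody D1E11. The series also has 1 library of input chromatin without antibody, which is not analysed here. Its stated aim was to find the binding sites of ICN1, the intracellular part of Notch1 that is cut from the receptor and acts in the nucleus with the DNA-binding protein RBPJ. Neither the number of mice nor pooling is stated in the sources used here.

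The deposited list held 5913 peaks on build mm10, 5910 of them on nuclear chromosomes. The authors' score for each peak has no stated scale and served only to rank peaks within the list. The read depth is unknown. With 1 library there was no replicate and no test, so intervals cover counting error among genes or peaks and not the spread between animals. Among marker genes of cell types, 7 of 17 for T and gamma delta T cells lay within 5 kb of a peak. The counts were 0 of 6 for B cells, 2 of 6 for myeloid cells and 0 of 6 for stroma. Within 1 kb they were 6 of 17 for T and gamma delta T cells and 0 of 6 for each other type. Over all protein-coding genes the shares were 8.81% within 5 kb and 5.16% within 1 kb, so 0 of 6 is not a low count. A peak does not measure expression, so these counts do not show which cells were present.

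Splicing removes introns from RNA transcripts. The small nuclear ribonucleoproteins, built on Sm proteins that the Snrp genes encode in part, recognise the splice sites together with the U2AF and SF3 proteins, and PRPF proteins act in the assembly and activation of the spliceosome. SR proteins (Srsf) and hnRNPs bind the transcript itself and shift the choice of exons, often in opposite directions. In T cells this choice is best known for the phosphatase CD45, whose variable exons are skipped under the control of hnRNP L and hnRNP LL.

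The member peaks of highest score lay at the promoters of Hnrnpl, Srsf6, Hnrnpk and Hnrnpa2b1. Their sequences are shown because these 5 peaks have the highest scores among the members and differ in the motifs they hold. For each peak the longest stretch outside annotated untranslated exon sequence is given on the strand of the gene, limited to its central 300 bases for the second Hnrnpl peak, from GRCm38, the assembly that mm10 names. Capitals mark matches, on either strand, to any of 9 motifs searched, namely TGGGAA (RBPJ core), CCGGAA (ETS), the NRF1 palindrome, AAGATGGC (YY1), CACGTG (E-box), TGTGGT (RUNX), CCAAT (NF-Y), GGGCGG (SP and KLF) and TGACGT (CREB and ATF). The stretches are chr7:28808860-28809010 on the plus strand for the first Hnrnpl peak, chr2:162931358-162931527 on the plus strand for Srsf6, chr13:58401571-58401792 on the minus strand for Hnrnpk, chr7:28809126-28809425 on the plus strand for the second Hnrnpl peak and chr6:51469895-51470159 on the minus strand for Hnrnpa2b1.
Hnrnpl, first peak: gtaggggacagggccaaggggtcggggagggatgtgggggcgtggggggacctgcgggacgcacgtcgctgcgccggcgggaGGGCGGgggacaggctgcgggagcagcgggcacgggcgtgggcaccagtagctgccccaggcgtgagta
Srsf6: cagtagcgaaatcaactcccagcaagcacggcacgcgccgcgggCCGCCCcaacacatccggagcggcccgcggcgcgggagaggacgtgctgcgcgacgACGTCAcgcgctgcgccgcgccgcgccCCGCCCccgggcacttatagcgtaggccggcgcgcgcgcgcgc
Hnrnpk: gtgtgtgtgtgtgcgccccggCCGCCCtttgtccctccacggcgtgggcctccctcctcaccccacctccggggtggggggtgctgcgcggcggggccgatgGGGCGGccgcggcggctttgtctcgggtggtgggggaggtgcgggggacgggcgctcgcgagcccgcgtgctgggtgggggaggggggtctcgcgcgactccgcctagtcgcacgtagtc
Hnrnpl, second peak: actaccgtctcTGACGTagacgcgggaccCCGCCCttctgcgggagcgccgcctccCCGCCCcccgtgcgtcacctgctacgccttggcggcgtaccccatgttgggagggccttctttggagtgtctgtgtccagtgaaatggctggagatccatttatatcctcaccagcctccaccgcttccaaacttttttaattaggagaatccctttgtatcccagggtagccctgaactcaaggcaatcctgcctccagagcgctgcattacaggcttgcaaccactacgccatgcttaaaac
Hnrnpa2b1: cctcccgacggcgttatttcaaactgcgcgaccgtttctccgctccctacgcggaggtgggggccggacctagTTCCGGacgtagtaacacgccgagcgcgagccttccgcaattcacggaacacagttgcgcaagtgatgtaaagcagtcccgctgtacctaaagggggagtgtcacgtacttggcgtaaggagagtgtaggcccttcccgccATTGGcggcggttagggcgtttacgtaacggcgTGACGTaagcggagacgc
None of these stretches held the RBPJ core, but the part of the first Hnrnpl peak that is not printed held 2 copies. The Srsf6, second Hnrnpl and Hnrnpa2b1 stretches each held 1 CREB and ATF match. The stretches of Hnrnpl, Srsf6 and Hnrnpk held SP and KLF matches, while that of Hnrnpa2b1 held an ETS and an NF-Y match.

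Peaks near start sites were found at part of the hnRNP, SR protein and Prpf genes. Of the 68 genes, 16 had a peak within 5 kb of an annotated start site, a share of 23.5% (Wilson 95% interval 15.0 to 34.9), where 8.81% of all protein-coding genes had one. Within 1 kb the count was 12, or 17.6% (10.4 to 28.4), beside 5.16% of all protein-coding genes. The 16 genes were 10 of 20 Hnrnp genes, 4 of 11 Srsf genes and 2 of 13 Prpf genes. None of the 12 Snrp, 9 Sf3a or Sf3b and 3 U2af genes had one within 5 kb. By the approximation of 3 over the number of genes, 0 of these 24 allows a share of up to 12.5%. The Wilson upper bound was 13.8%. For these 24 genes the other genes of similar CpG ratio, described below, gave an expected share of 11.8%. That value is close to these limits, so 24 genes do not settle whether peaks were less frequent than in such genes.

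**Figure D1:**
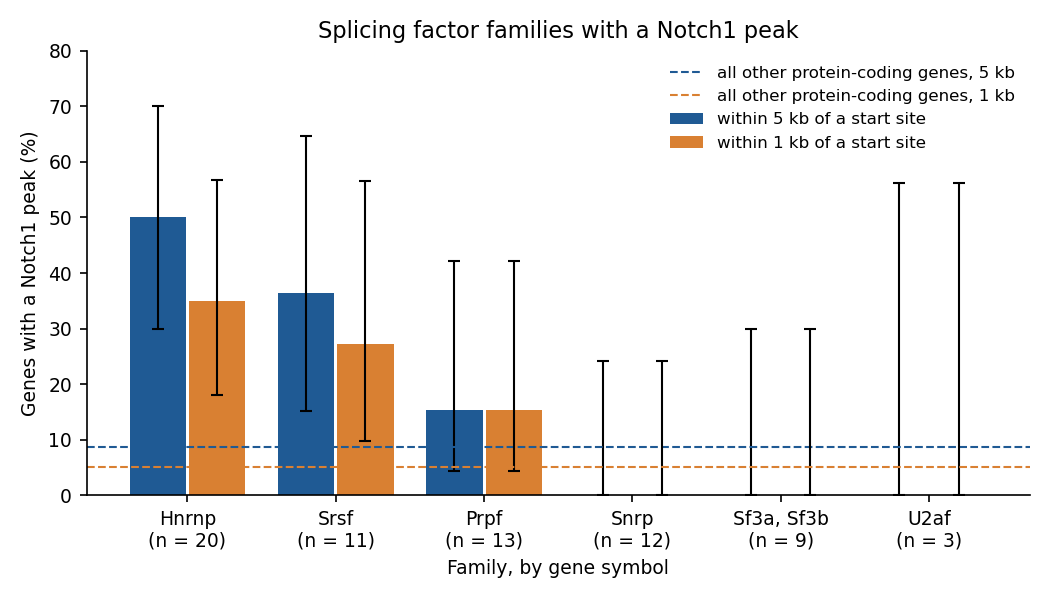
Share of genes with a Notch1 peak, in percent, for each family of splicing genes (number of genes in brackets), within 5 kb (blue) and 1 kb (orange) of a start site. Bars are shares, error lines are Wilson 95% intervals and dashed lines are the shares of all other protein-coding genes. Hnrnp genes reach 50.0% at 5 kb and the Snrp, Sf3a or Sf3b and U2af families are at 0.

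Among the Hnrnp genes the share was 50.0% (29.9 to 70.1) within 5 kb and 35.0% (18.1 to 56.7) within 1 kb. Among the Srsf genes it was 36.4% (15.2 to 64.6) and 27.3% (9.75 to 56.6), and among the Prpf genes 15.4% (4.33 to 42.2) at both distances. The families were not tested against each other. The ratio of the share of all 68 genes to that of the other 21870 protein-coding genes was 2.68 at 5 kb and 3.45 at 1 kb. Without the Hnrnp genes the ratio was 1.43 at 5 kb and 2.03 at 1 kb. With peaks in the upper quartile of score alone, 8 members had a peak within 5 kb, beside 2.62% of all protein-coding genes, and the ratios were 4.55 at 5 kb and 7.48 at 1 kb, where 1.6% of all protein-coding genes had one.

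The promoters of these genes are rich in CpG, the dinucleotide of CpG islands, and many have several annotated start sites. The median ratio of observed to expected CpG, over 500 bp on either side of the most 5′ start site, was 0.834 in members and 0.551 in other genes, and 61 of 68 members lay in the upper 5 of 10 deciles of all genes. Peaks became more frequent with this ratio among other genes, from 2.42% in the lowest decile to 16.2% in the highest. Weighting the other genes by the deciles in which members lie gave an expected share of 13.0% at 5 kb and 8.47% at 1 kb. The members' shares were 1.81 and 2.08 times these values. Without the Hnrnp genes the ratio was 0.987 at 5 kb, where 6 of the remaining 48 genes had a peak, and 1.27 at 1 kb, where 5 had one.

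Start sites per gene also moved with the result. Members had a median of 5.5 annotated start sites and other genes 3, and among other genes the share with a peak within 5 kb went from 3.59% with 1 start site to 19.1% with 9 or more. Weighting by the number of start sites gave an expected 12.3% at 5 kb, and weighting by start sites and CpG ratio together gave 14.8% at 5 kb and 9.56% at 1 kb. The members' shares were 1.59 and 1.85 times these last values. In the highest CpG decile 8 of 26 members had a peak within 5 kb, beside 16.2% of other genes, and in the decile below it 0 of 12, beside 13.9%. Of the 20 members with 9 or more start sites 9 had a peak, beside 19.1% of other genes. For the Hnrnp genes, with a median of 8 start sites, the expected share at 5 kb was 13.7% by CpG ratio and 14.0% by start sites, beside the 50.0% measured.

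**Figure D2:**
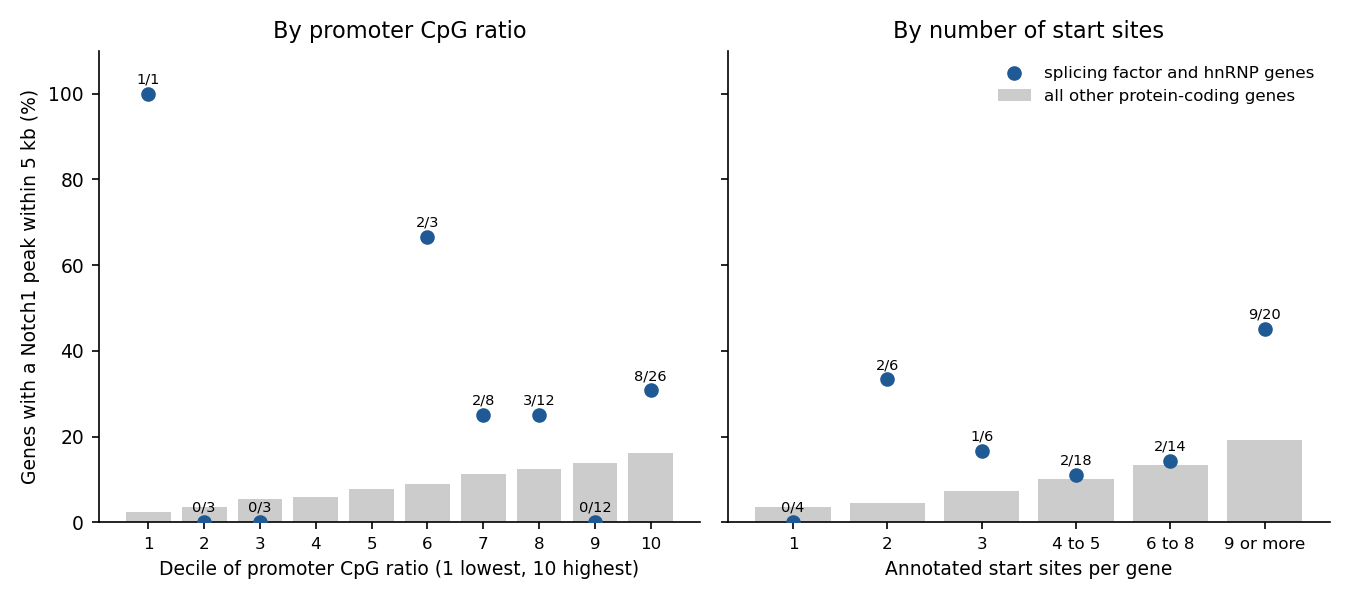
Share of genes with a Notch1 peak within 5 kb, in percent, by decile of promoter CpG ratio (left) and by number of annotated start sites (right). Bars are all other protein-coding genes, and points are the splicing factor and hnRNP genes with the count having a peak over the number of genes. Bars go up from 2.42 to 16.2% on the left and from 3.59 to 19.1% on the right, and several points rest on 3 or fewer genes.

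Hnrnpl, which encodes a protein that binds CA-rich RNA and acts on the variable exons of CD45, carried 5 peaks within 5 kb of a start site. The gene spans 28808541 to 28822266 on chromosome 7. Only 15 of 21938 protein-coding genes (0.0684%) had 5 or more such peaks. Many of these 15 have Gm symbols, such as Gm10717, and others are Junb, Nr4a1, Nr4a3 and Zfp36. Hnrnpl has 13 annotated start sites, which widen the region searched. The first peak (28808612 to 28809010) covered 2 annotated start sites and the 5′ untranslated region, scored 2008 and ranked 101 of 5910. Another 2 peaks followed in an intron of Hnrnpl, at 28809069 to 28809483 (score 1284) and 28809780 to 28810088 (score 1105). They lay 35 and 262 bp from an annotated start site, and both overlapped the span of the antisense gene Gm44702. The fourth (28811200 to 28811593, score 661) was intronic, and the fifth (28821826 to 28822095, score 846) lay at the far end of the gene over coding and 3′ untranslated sequence. The scores thus fell off away from the promoter, except that the last peak exceeded the fourth. Hnrnpll, the related gene whose product also represses CD45 exons, had 1 peak of score 874 on chromosome 17 from 80038376 to 80038767. It lay 2820 bp from the nearest annotated start site but 23.8 kb by its midpoint from the most 5′ one, over an exon inside the gene.

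Hnrnpk encodes a protein that binds C-rich RNA and DNA. Its peak, on chromosome 13 from 58401567 to 58402025, scored 1518, ranked 252 and covered 2 start sites and 5′ untranslated sequence, 1318 bp from the most 5′ start site. The peak also lay 223 bp from a start site of Rmi1. Hnrnpa2b1, whose product packages transcripts and acts on exon choice, had a peak that covered 6 of its start sites, on chromosome 6 from 51469686 to 51470159 (score 1284), and lay 201 bp from a start site of Cbx3. Both peaks were thus also close to a start site of a neighbouring gene, and the peak list does not tell which of the genes they belong to.

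Hnrnpu encodes an abundant nuclear matrix protein that binds RNA and DNA. It had 2 peaks on chromosome 1, at 178337330 to 178337605 (score 1029) over coding sequence and the 5′ untranslated region, and at 178327786 to 178327984 (score 1147) over 3′ untranslated sequence. The second lay 1423 bp from an internal start site and 9.91 kb by its midpoint from the most 5′ one. It was the only member peak beyond 1 kb of a start site that scored in the upper quartile of the list (at or above 904). Hnrnpd, which encodes the AU-rich element binding protein AUF1, had a peak over a coding exon (chromosome 5, 99967226 to 99967620, score 938). That peak lay 839 bp from an internal start site and 11.5 kb by its midpoint from the most 5′ one.

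The remaining Hnrnp genes with a peak had lower scores. Hnrnph1, which encodes a protein of G-rich RNA, had a peak over 2 start sites (chromosome 11, 50378244 to 50378618, score 659). Hnrnpm had 2 intronic peaks on chromosome 17, at 33656565 to 33656918 (score 701) and 33682311 to 33682626 (score 689.8). They lay 2163 and 2745 bp from the nearest start site, and 30.1 and 4.39 kb by midpoint from the most 5′ one. The second was 53.5% soft-masked repeat sequence. The Hnrnpc peak (chromosome 14, 52103084 to 52103458, score 597) was intronic and 511 bp from a start site of this gene, whose product binds uridine tracts. The Hnrnpa1 peak (chromosome 15, 103239059 to 103239403, score 569) lay 1029 bp from the nearest start site of this exon-skipping regulator, just outside the 1 kb window. It lay inside Cbx5, 413 bp from a start site of that gene, and counted for Cbx5 alone if only the nearest start site was considered. The scores of these peaks were all under the list's median of 718. The 10 Hnrnp genes without a peak included Hnrnpab, 21.3 kb from the nearest peak, Hnrnpa3 at 125 kb and Hnrnpf at 414 kb.

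Among the SR protein genes, Srsf6, Srsf10 and Srsf4 had a peak over a start site. The Srsf6 peak (chromosome 2, 162931358 to 162931815) scored 1718, ranked 169 and covered 3 start sites, 5′ untranslated sequence and coding sequence. A second Srsf6 peak (162935909 to 162936306, score 706) lay over 3′ untranslated sequence, 4248 bp from the nearest start site. The Srsf10 peak (chromosome 4, 135855757 to 135856118) scored 1067.5 and covered 2 start sites of this gene, whose product represses splicing when dephosphorylated. The Srsf4 peak (chromosome 4, 131873569 to 131873978) scored 827 and also covered 2 start sites. These 3 promoter peaks were rich in G and C, with 73.1, 70.4 and 76.3%. The fourth gene, Srsf12, had an intronic peak of score 589.8 that lay 3620 bp from a start site and was 57.5% soft-masked repeat sequence. Srsf1, Srsf2, Srsf3 and Srsf7, the best studied members of the family, had no peak within 5 kb. Their nearest peaks lay 220.3, 57.5, 41.4 and 27.1 kb from a start site.

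Of the 13 Prpf genes, Prpf4 and Prpf40b had a peak, a share of 15.4% beside 12.4% expected from genes of similar CpG ratio at 5 kb and 7.99% at 1 kb. Prpf4, which encodes a protein of the tri-snRNP, had a peak 493 bp upstream of its start site (chromosome 4, 62408025 to 62408304, score 722). It lay inside Cdc26 and nearer to a start site of that gene, at 321 bp. Prpf40b, a relative of a yeast protein of the U1 snRNP, had a peak over coding sequence (chromosome 15, 99314282 to 99314755, score 932). This peak lay 113 bp from an internal start site but 19.4 kb by its midpoint from the most 5′ one. Prpf8, which encodes the protein at the catalytic centre, had its nearest peak at 25.7 kb, and Prpf31 at 9.97 kb.

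For the genes of 3′ splice site recognition the nearest peaks lay at 34.0 kb for U2af1, 11.9 kb for U2af2 and 102 kb for Sf3b1, which encodes the largest SF3B subunit. Among the Sm and related genes the nearest peak was that of Snrpd1, at 7.41 kb. Snrpc was the only member whose gene body held a peak while no start site had one within 5 kb. That peak (chromosome 17, 27850438 to 27850843, score 553) overlapped an exon of a non-coding transcript, 10.3 kb from the nearest start site. Snrpn, an imprinted gene expressed mainly in neurons, lay 776 kb from the nearest peak. Over all 52 members without a peak within 5 kb, the nearest lay at a median of 64.1 kb.

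**Figure D3:**
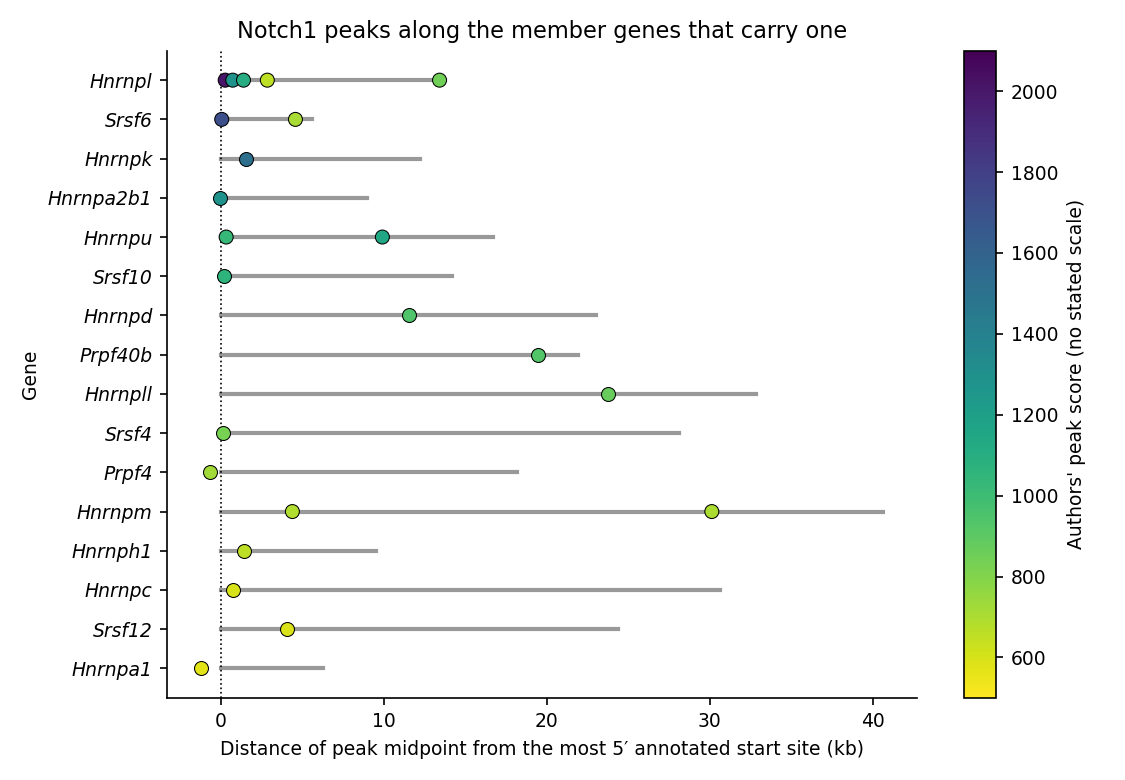
Notch1 peaks along the 16 genes that carry one within 5 kb of a start site. The horizontal axis gives the distance of the peak's midpoint from the most 5′ annotated start site in kb (positive in the direction of transcription), grey lines are the annotated genes, and colour gives the authors' score. Hnrnpl holds 5 peaks, and Hnrnpd, Prpf40b and Hnrnpll hold theirs over 11 kb inside the gene.

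The 16 genes had 23 peaks, each counted for 1 member. Of these 7 covered a start site, 9 lay outside but within 1 kb and 7 lay at 1 to 5 kb. A start site was thus covered by 30.4% of the member peaks and lay within 1 kb of 69.6%, beside 20.9% and 54.1% for other genes, a difference that was not tested. With regard to the most 5′ start site, 9 of 23 (39.1%) lay within 1 kb, beside 37.7% of the 2377 pairs of another gene and a peak within 5 kb. Inside the member gene lay 21 of the 23. Of the 23, 9 lay over 5′ untranslated sequence, 8 over coding exons and 7 in introns alone. Sequence annotated as 3′ untranslated in at least 1 transcript lay under 4, and 1 peak can count in several classes. The matching shares for peaks of other genes were not computed, so whether these counts are usual is not known. Counted from the most 5′ start site alone, 13 members had a peak within 5 kb, beside 6.52% of all genes, and 8 within 1 kb, beside 3.78%. Hnrnpd, Hnrnpll and Prpf40b were the genes lost at 5 kb.

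The promoter peaks of members had a higher median score than other promoter peaks. Promoter peaks are those within 1 kb of any annotated start site, internal ones included. Those of Hnrnpd and Prpf40b and the fifth of Hnrnpl lay 11.5, 19.4 and 13.4 kb by midpoint from the most 5′ start site. The 16 member peaks within 1 kb of a start site had a median score of 983, from 597 to 2008, while the 1157 other promoter peaks had a median of 749. In the upper quartile of the list lay 10 of the 16 (62.5%), beside 29.1% of the other promoter peaks. Hnrnpl supplied 5 of the 16. Taking the highest peak within 5 kb per gene, the median was 903 over 16 members and 756 over 1917 other genes. These differences were not tested.

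**Figure D4:**
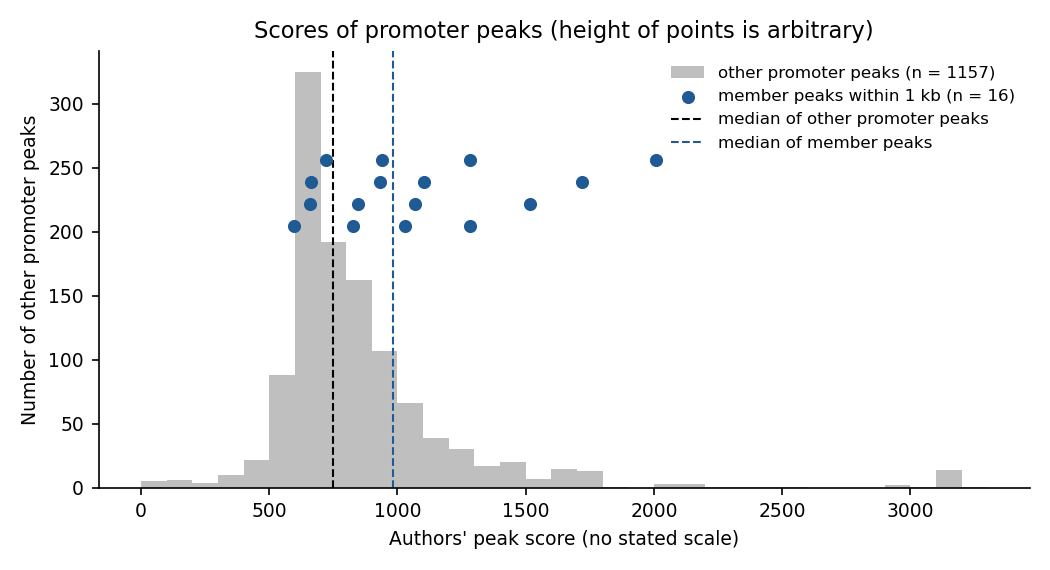
Scores of peaks within 1 kb of a protein-coding start site. The grey histogram counts the 1157 other promoter peaks by score, the blue points are the 16 member peaks (their height carries no value), and the dashed lines are the medians, 749 and 983.

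Member promoter peaks were also richer in G and C, with a median of 61.6% beside 52.4%, and were of similar width (394.5 and 384 bp). Soft-masked repeat sequence made up a median of 10.3% of them and 9.40% of the other promoter peaks. A second protein-coding gene had a start site within 1 kb of 3 of the 16 (18.8%), namely the peaks of Hnrnpk, Hnrnpa2b1 and Prpf4, and of 10.3% of the other promoter peaks.

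The RBPJ core TGGGAA was found in 2 of the 16 member promoter peaks, or 12.5% (Wilson 95% interval 3.50 to 36.0), and in 31.7% of the other promoter peaks. Both were Hnrnpl peaks, the first with 2 copies, which lie outside the stretch printed above. The fifth, at the far end of the gene, held 1. At 1 to 5 kb, the 3′ peaks of Srsf6 (2 copies) and Hnrnpu (1) and the Hnrnpm peak at 33656565 (1) held it. GGGCGG was present in 9 of 16 member promoter peaks (56.2%, beside 35.3%), TGTGGT in 6 (37.5%, beside 20.5%), TGACGT in 4 (25.0%, beside 11.1%), CCAAT in 6 (37.5%, beside 36.3%) and CCGGAA in 3 (18.8%, beside 20.7%). The NRF1 palindrome, AAGATGGC and CACGTG were in none, where the other promoter peaks held them in 0.951, 4.06 and 8.04%. With 16 peaks these shares carry wide intervals, and the part of the higher GC content in them was not tested. Hnrnpl supplied 5 of the 16, and the interval treats peaks of 1 gene as independent.

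The promoters of the family as a whole gave another picture for ETS. RefSeq promoters on GRCm38, from 250 bp before to 50 bp after each start, were matched for 59 of the 68 members and for 16463 other protein-coding genes. CCGGAA lay in the promoters of 31 of 59 members (52.5%) and of 21.4% of the other genes, and TGACGT in 16 (27.1%) and 9.82%. The RBPJ core lay in 14 (23.7%) and 27.2%. A gene counted if any of its promoter entries held the motif. These shares describe the reference sequence and not binding, and they were not matched for CpG ratio or for the number of entries per gene.

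Other genes of splicing carried peaks as well. On a list of 95 further genes, of snRNP and LSm proteins, helicases, kinases of SR proteins and other RNA-binding regulators, 23 had a peak within 5 kb (24.2%, 16.7 to 33.7) and 15 within 1 kb (15.8%, 9.81 to 24.4). Genes of similar CpG ratio gave expected shares of 13.4 and 8.84%. The highest scores were those of the helicase gene Ddx5 (1659.7), Tardbp (1365), which encodes the RNA-binding protein TDP-43, the recycling factor gene Sart3 (1246), Acin1 (1136), Rbm8a (1111) and the nuclear matrix gene Matr3 (1093). Ddx5 had 4 peaks within 5 kb and Tardbp had 2. Like groups of housekeeping genes stood at 21.4% (cytosolic ribosomal proteins, 18 of 84), 18.2% (translation initiation, 10 of 55) and 14.0% (proteasome, 7 of 50) within 5 kb. The intervals of these groups, 14.0 to 31.3, 10.2 to 30.3 and 6.95 to 26.2%, overlapped that of the splicing genes, and no difference between them was tested.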

How the data were processed

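Chromatin immunoprecipitation with a Notch1 antibody was followed by sequencing in 1 library. Fixation was in 0.5% formaldehyde (5 min), and sonication and enzymatic digestion preceded 18 PCR cycles, per the labels' protocols. Bowtie 1.0.0, SAMtools 0.1.18 and build mm10 appear in the submitters' processing notes. Peak names in the deposited file start with MACS. For its version, settings, control, duplicate handling and depth, nothing is given in the sources used here. PCR duplicates and repeats can both raise the deposited score, and a peak list shows neither.

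Peaks were set on GENCODE M21 start sites of all transcripts of nuclear protein-coding genes, and 0 reached past a chromosome end. A peak counted for a gene if at least 1 bp lay within 1 kb or 5 kb of a start site. Shares carry Wilson 95% intervals (statsmodels 0.14.6). Expected shares weight other genes by deciles of CpG ratio. The assignment of peaks was tested on simulated peaks. The members, lists, motifs and the naming rule were chosen with earlier results of these data known. Named were all members with a peak within 5 kb, 15 fixed members whether or not they had one, members with a peak only inside the gene, and up to 6 other splicing genes by score. Hnrnpab, Hnrnpa3, Hnrnpf and Snrpd1 were singled out after their values were seen. Strata by number of start sites were added after seeing the data. Printed sequences leave out untranslated regions.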

Additional observations from a re-analysis of the deposited data

How the results depend on the processing

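The count of members with a peak within 5 kb ranged from 8 to 16 over 7 alternatives and that within 1 kb from 8 to 11. Over the same alternatives the share of other protein-coding genes ranged from 2.59 to 8.63% at 5 kb and from 1.57 to 4.80% at 1 kb. With peaks in the upper quartile of score the 5 kb count was 8, and the ratios to other genes and to genes of similar CpG ratio were 4.55 and 2.95 at 5 kb and 7.48 and 4.31 at 1 kb. Fewer peaks lower the count by construction, and the cause of the higher ratios was not tested. Without the Hnrnp genes the ratios were 1.43 and 0.987 at 5 kb and 2.03 and 1.27 at 1 kb, since the family with the highest share is then left out. Every other alternative kept the ratios within the interval of the main value, and above 1. They comprised peaks at or above the median score, peak midpoints, start sites of coding transcripts or the most 5′ one, peaks under 20% soft-masked, nearest start sites alone, other CpG windows and 5 or 20 strata, leaving out each other family, and, chosen after seeing the data, strata by number of start sites. The 7 alternatives in peaks or start sites could only remove a call and not add one. The 0 of the Snrp, Sf3a or Sf3b and U2af genes was therefore fixed under them. Of the 16 genes with a peak, 11 kept it when only peaks at or above the median score counted, and 8 with the upper quartile. Of other protein-coding genes 5.03% and 2.59% had a peak within 5 kb under these cuts, beside 8.77% with all peaks. No paired analysis was possible because the Notch1 library has no replicate. With unknown depth, a gene without a peak may be bound below the limit of detection.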
